A study of Mus musculus with 6 samples.

Results

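The clustered protocadherin genes of the mouse cochlea were taken as the gene symbols that begin with Pcdha, Pcdhb, Pcdhga, Pcdhgb or Pcdhgc followed by a number. By this rule 57 of the 24411 symbols listed in each library were members: 13 of the alpha cluster (Pcdha1 to Pcdha12 and an entry named Pcdha7-g), 22 of the beta cluster and 22 of the gamma cluster. The gamma members were 12 of type A, 7 of type B and 3 of type C. Pcdhac1 and Pcdhac2, the C-type genes of the alpha cluster, have a letter before the number and are given beside the members.

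Clustered protocadherins are cadherin-like adhesion proteins of the cell surface that bind the same isoform on a facing cell. In neurons, promoter choice gives single cells their own combinations of isoforms, which serve in self-avoidance of dendrites and axons, in neuronal survival and in synapse formation. Alpha and gamma genes each contribute a first, variable exon, which encodes the extracellular and transmembrane parts and is spliced to constant exons that encode a shared cytoplasmic end, whereas a beta gene is 1 exon with no constant part. The C-type genes are the ones that many neurons express at once, and clustered protocadherins are also found outside neurons.

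Poly(A) RNA of sensory epithelium from the organ of Corti was sequenced at postnatal day 9 (P9) in 3 Kir2.1-OE and 3 control libraries. Each library was made from 8 cochleae of 4 mice, pooled, so the replicate is a pool and not a mouse. Kir2.1-OE mice, on C57BL/6N, were compound heterozygous for OtofrtTA and for tetO-Kir2.1-IRES-tau-lacZ, so that doxycycline (DOX) induces Kir2.1, an inwardly rectifying potassium channel, wherever the promoter of Otof is active, a gene of hair cells and mainly of inner hair cells (IHCs). Controls were littermates heterozygous for OtofrtTA, called WT in the labels, and both groups received DOX at 0.5 mg/ml in drinking water, which before weaning was that of the mother. The comparison asks which RNAs differ when IHCs cannot fire their intrinsic Ca2+ action potentials. The OtofrtTA allele and DOX are common to both groups, whereas the tetO-Kir2.1 allele and its lacZ product go with the Kir2.1-OE group.

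Kcnj2, which encodes Kir2.1, was listed at 3612, 3813 and 2213 normalized counts in the Kir2.1-OE pools, replicates 1 to 3, and at 236, 228 and 226 in the control pools. Its log2 fold change, here always Kir2.1-OE minus control, was 3.80 (SE 0.199) with an adjusted p of 7.04e-05 (edgeR quasi-likelihood test, Benjamini-Hochberg adjusted). A normalized count is the estimated read count of a gene scaled by the library's effective size, and between 35430940 and 41205047 reads were assigned per library. The markers set for hair cells, supporting cells, neurons, glia, fibroblasts, macrophages and erythrocytes were all detected, so the counts are those of a mixed tissue. In such bulk samples fewer cells of a type and less RNA per cell cannot be told apart. Markers of spiral ganglion neurons, the cells that contact IHCs, had 5 of 9 genes called higher (55.6%, beside 15.5% of all genes tested), 3 without Kir2.1-OE replicate 3 or without control replicate 3, and their summed count was 17338 to 44296 in the Kir2.1-OE pools, above the 9494 to 15151 of the controls. Nefm and Nefl weigh most in that sum, and for 5 of the 9 genes the groups overlapped. The 7 glial markers summed to between 370720 and 488770 against 268700 to 340020, and the 4 inner hair cell markers to between 9437 and 11078 against 6939.9 to 7778. When the fit carried offsets for length and GC content, the median log2 fold change of the inner hair cell markers went from 0.54 to -0.03, while that of the glial markers was 0.56 without and 0.59 with them. No gene of these 3 lists was at 0 in every library.

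The alpha genes had the largest fold changes of the family, the beta genes lay around 0 and the gamma genes were a little above it. Of the 57 members 54 passed the filter on low counts, and 4 were called higher in Kir2.1-OE: Pcdha2, Pcdha4, Pcdha10 and Pcdhb2. A call needs an adjusted p under 0.05 and a fold change above 1.5. That is 7.41% of the tested members, where 15.5% of the 15303 genes tested were called higher. None was called lower by edgeR, DESeq2 or limma-voom, against 5.08% of genes by edgeR, and 0 had an unadjusted p under 0.05 in that direction, while 9 of the 54 had a log2 fold change below 0. Without the fold threshold 12 members had an adjusted p under 0.05 and were higher (22.2% of those tested, against 27.3% of genes), and 0 were lower (23.5% of genes) in the edgeR quasi-likelihood test with Benjamini-Hochberg adjusted p. The count of 12 was 6 without control replicate 3, and the count of 4 called members was 2 without Kir2.1-OE replicate 1. For 20 members every Kir2.1-OE library exceeded every control library (37.0%, against 31.7% of genes), and for 1 member every one was lower (1.85%, against 29.9%). The median log2 fold change was 1.04 over the 11 tested alpha genes, 0.02 over the 21 tested beta genes and 0.27 over the 22 gamma genes, beside 0.01 over the genes tested. Offsets for transcript length and GC content changed this picture for gamma and less so for alpha: the medians were then 0.73, -0.01 and -0.08, beside -0.04 over the genes tested.

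**Figure D1:**
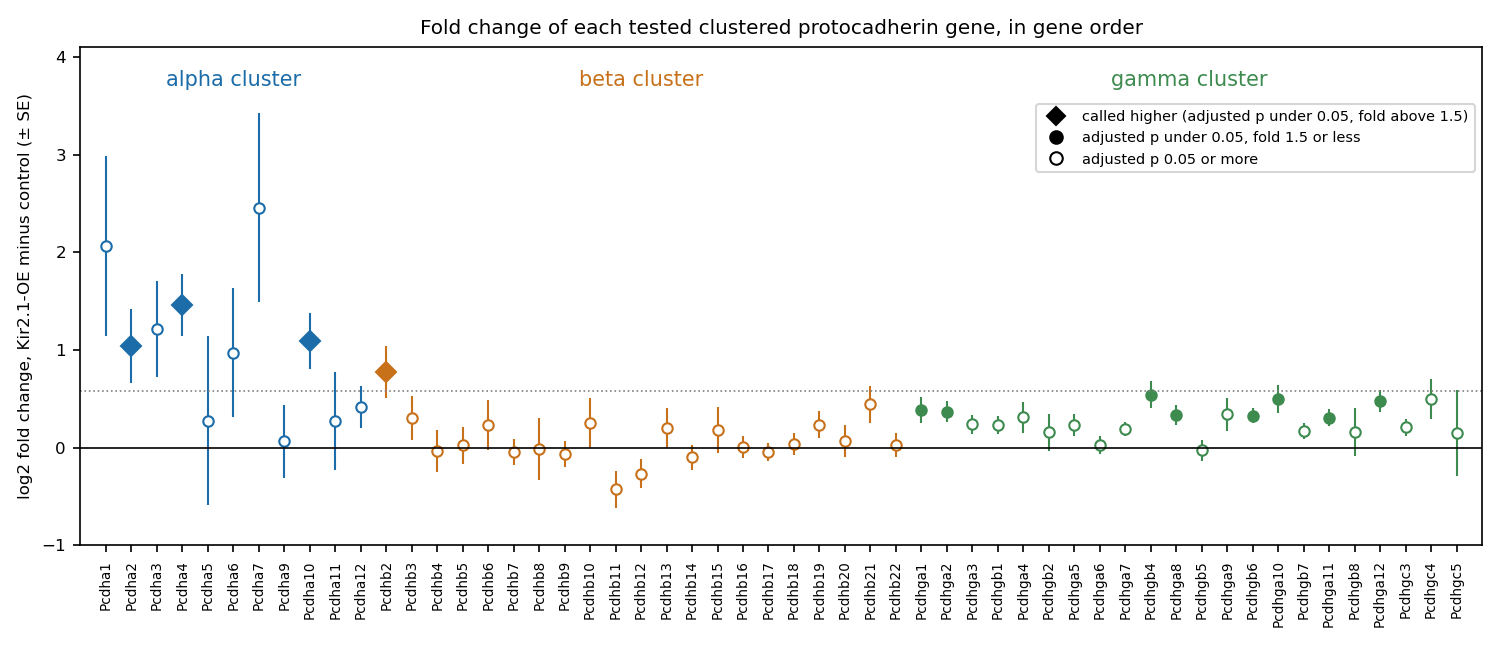
Log2 fold change (Kir2.1-OE minus control, ± SE of the fit) of the 54 tested members, in gene order along the 3 clusters, with 3 pools per group. Diamonds are the 4 called members, filled circles the 8 gamma genes with an adjusted p under 0.05 at a smaller fold, open circles the rest, and the dotted line marks a fold of 1.5. Alpha genes lie at or above 0 with wide errors, beta genes scatter around 0 and all gamma genes but Pcdhgb5 lie above 0, a direction that turns for 14 of them with the length and GC offsets.

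The 3 clusters lie in a row on the forward strand of chromosome 18 in mm10. The 12 alpha members found in the GENCODE vM21 annotation span 36930184 to 37187661, the beta genes 37264938 to 37524479 and the gamma genes 37661793 to 37841873. The longest transcript of each annotated alpha member has 4 exons and shares 2860 nt, between 53.3% and 54.9% of its length, with the other alpha members. All 22 beta genes are annotated with 1 exon, and Pcdhb21 and Pcdhb22 overlap by 455 nt, so reads of that stretch can belong to either. Of the gamma genes 21 have 4 exons, and up to 2119 nt, at most 45.9% of the transcript, is common to members, while Pcdhgb8 is annotated as a polymorphic pseudogene. Reads of the constant exons had to be divided among the members by the estimate, and the deposited values show it: 88.5% of the alpha values and 100% of the gamma values were not whole numbers, whereas 0% of the beta values were not whole. A single alpha or gamma value is therefore partly an allocation, and the cluster sums are given as well.

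The alpha cluster was the least abundant and had the largest fold changes. Its 13 members summed to 690.8, 499.7 and 962.7 normalized counts in the Kir2.1-OE pools, replicates 1 to 3, and to 363.2, 496.1 and 336.9 in the control pools. The means were 718 ± 233 and 399 ± 85.3 (SD, n = 3 pools), a ratio of 1.80. The groups nearly touched, with Kir2.1-OE replicate 2 just above control replicate 2, and with library size alone (491.5 against 497.5) or upper quartile scaling (485.7 against 507.5) they overlapped. On the log2 scale the difference was 0.85, at its lowest 0.58 (Kir2.1-OE replicate 3 left out) and at its highest 1.05 (Kir2.1-OE replicate 2 left out).

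Pcdha4, which like each member encodes an adhesion protein with its own extracellular domains, was the alpha member with the lowest adjusted p. It had 94.4, 67.0 and 75.1 normalized counts in the Kir2.1-OE pools, replicates 1 to 3, and 27.1, 18.2 and 40.7 in the control pools. Every Kir2.1-OE library was above every control library, and the log2 fold change was 1.46 (SE 0.318, adjusted p = 0.00429, edgeR quasi-likelihood test, Benjamini-Hochberg adjusted). It was called with each library left out, at 1.22 to 1.80, and with the length and GC offsets, at 1.16. Tested against a log2 fold change of 0.6 by glmTreat in place of 0, it had an adjusted p of 0.0654 (edgeR, Benjamini-Hochberg adjusted), and 0 members were called that way, where 3 were higher at an unadjusted p under 0.05.

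Pcdha10 had 45.2, 55.0 and 57.1 normalized counts in the Kir2.1-OE libraries and 25.1, 30.0 and 18.3 in the controls. The 3 Kir2.1-OE values were close together and the groups did not overlap, for a log2 fold change of 1.09 (SE 0.283, adjusted p = 0.0104, edgeR quasi-likelihood test, Benjamini-Hochberg adjusted). Its call held with each library left out, and with the offsets its log2 fold change was 0.80 at an adjusted p of 0.051 (edgeR quasi-likelihood test, Benjamini-Hochberg adjusted). Pcdha2 had 106, 75.9 and 159 against 35.1, 86.3 and 42.8, so that control replicate 2 exceeded Kir2.1-OE replicate 2. The log2 fold change of Pcdha2 was 1.04 (SE 0.377, adjusted p = 0.0429, edgeR quasi-likelihood test, Benjamini-Hochberg adjusted). This call was lost without Kir2.1-OE replicate 1 (1.07), Kir2.1-OE replicate 3 (0.71), control replicate 1 (0.80) or control replicate 3 (0.89), where the adjusted p lay between 0.0917 and 0.159, and it was lost with the offsets.

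The other tested alpha members were not called by edgeR, though all had log2 fold changes above 0. DESeq2 called Pcdha3 and limma-voom called Pcdha7, and both were called by edgeR with no filter beyond a total count above 0. Pcdha7 had 61.6, 40.0 and 108 normalized counts in the Kir2.1-OE pools, replicates 1 to 3, and 0, 36.3 and 0 in the control pools. By sampling alone a listed 0 still allows up to 3 reads, but alpha values are partly allocations, so that bound does not hold here. Pcdha7 passed the filter through its 3 Kir2.1-OE libraries and control replicate 2. The log2 fold change of 2.46 therefore rests on control replicate 2 and had an SE of 0.971 (adjusted p = 0.0593, edgeR quasi-likelihood test, Benjamini-Hochberg adjusted). Pcdha7-g, which RefSeq lists as a name of Gm38667, a gene that runs from the first exon of Pcdha7 to the end of the gamma cluster, was listed at 0, 0 and 5.29 and 14.0, 0 and 23.4, and it did not pass the filter. The 2 control libraries at 0 for Pcdha7 were those with reads for Pcdha7-g. Summed, the pair had 61.6, 40.0 and 113.2 normalized counts against 14.1, 36.4 and 23.4, which no longer leaves any library at 0 and did not overlap. The fit on this sum, added after the values were seen, gave a log2 fold change of 1.53 with an adjusted p of 0.0182 (edgeR quasi-likelihood test, Benjamini-Hochberg adjusted). In the same fit Pcdha4 and Pcdha6 were each summed with a gene that runs likewise from their first exon to the gamma end. Pcdha4 was then at 1.61 (adjusted p = 0.0023) and Pcdha6 at 0.66, below its 0.97 alone (adjusted p = 0.331, same test).

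Pcdha1, at 7.18, 11.99 and 50.8 against 0, 10.9 and 5.09, had a log2 fold change of 2.06 (SE 0.92) that came mainly from Kir2.1-OE replicate 3. Pcdha3, at 111, 33.0 and 124 against 57.2, 35.4 and 22.4, overlapped between groups because of Kir2.1-OE replicate 2, and its log2 fold change was 1.21 (SE 0.489). Pcdha12, the alpha member with the highest count per kb, had 92.4, 144 and 117 against 77.3, 96.3 and 91.6, where Kir2.1-OE replicate 1 lay within the control range. These values show Kir2.1-OE replicate 3 high for Pcdha1 and Pcdha3 and in the middle for Pcdha12.

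Pcdha9 differed least, with 86.2, 31.0 and 86.7 against 78.3, 66.3 and 49.9 and a log2 fold change of 0.07 (SE 0.374). Pcdha5 had 34.9, 1.999 and 66.6 against 7.02, 54.5 and 22.4, a spread wider than any difference between the groups, at a log2 fold change of 0.28 (SE 0.866). Pcdha11 had 20.5, 27.0 and 19.0 against 23.1, 26.4 and 5.09, with a log2 fold change of 0.28 (SE 0.501). For these 3 genes the groups overlapped and the sign turned under some of the alternatives. Pcdha6 had a log2 fold change of 0.97 (SE 0.66), and Pcdha8 had at most 2.12 normalized counts in any library and was not tested.

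**Figure D2:**
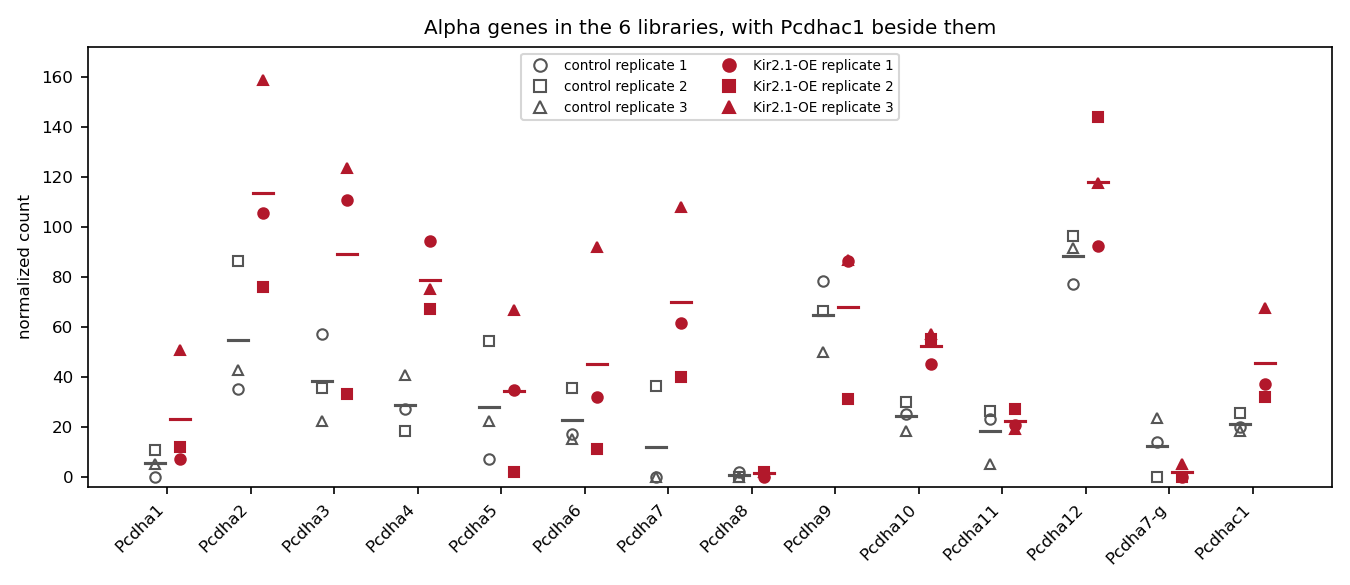
Normalized counts (linear axis) of the 13 alpha members and Pcdhac1 in each library, with the 3 control libraries as open grey symbols, the 3 Kir2.1-OE libraries as filled red symbols, the replicate number by shape and group means as lines. For Pcdha4 and Pcdha10 all red symbols lie above all grey ones, whereas for Pcdha2 and Pcdha3 the red square, Kir2.1-OE replicate 2, falls among the controls.

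Pcdhac1 and Pcdhac2, which share the constant exons of the alpha members, were both called higher. Pcdhac2, an isoform known for the spacing of serotonergic axons, had 585, 602 and 793 normalized counts in the Kir2.1-OE pools, replicates 1 to 3, and 352, 413 and 413 in the control pools. This exceeds in each Kir2.1-OE library every control library, at a log2 fold change of 0.75 (SE 0.137, adjusted p = 0.00183, edgeR quasi-likelihood test, Benjamini-Hochberg adjusted). Without Kir2.1-OE replicate 3 it was 0.58, just under the fold threshold, and with the offsets it was 0.28 and not called. Pcdhac1 had 37.0, 32.0 and 67.7 against 20.1, 25.4 and 18.3, a log2 fold change of 1.09 (SE 0.359, adjusted p = 0.0301, edgeR quasi-likelihood test, Benjamini-Hochberg adjusted). The call of Pcdhac1 was lost without Kir2.1-OE replicate 3 (0.67), control replicate 1 (1.04) or control replicate 3 (0.99) and with the offsets (0.80). The sum of the 13 members with these 2 genes had a ratio of 1.75 between groups.

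The alpha sum and the summed spiral ganglion neuron markers put the 6 libraries in the same order under TMM scaling, which sets the effective library sizes used here. From high to low these were Kir2.1-OE replicates 3, 1 and 2 and then control replicates 2, 1 and 3, and with upper quartile scaling or library size alone control replicate 2 was above Kir2.1-OE replicate 2 in the alpha sum. The neuron marker sums in the TMM order were 44296, 27465, 17338, 15151, 12442 and 9494. Nefm and Nefl weigh most in these sums, with Kir2.1-OE means of 10142 and 7296 normalized counts, the highest of the 9 markers. For 5 of the 9 the groups overlapped. In these 5, Tubb3, Elavl4, Stmn2, Prph and Gap43, Kir2.1-OE replicate 2 was below at least 1 control library, so the shared order is not that of each marker. Gap43 had 311, 313 and 405 normalized counts against 370, 390 and 356, at a log2 fold change of -0.12 (SE 0.133). The 9 neuron markers had a median log2 fold change of 1.10, and 1.09 with the offsets. The part that neuron RNA has in the alpha difference was not tested.

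**Figure D3:**
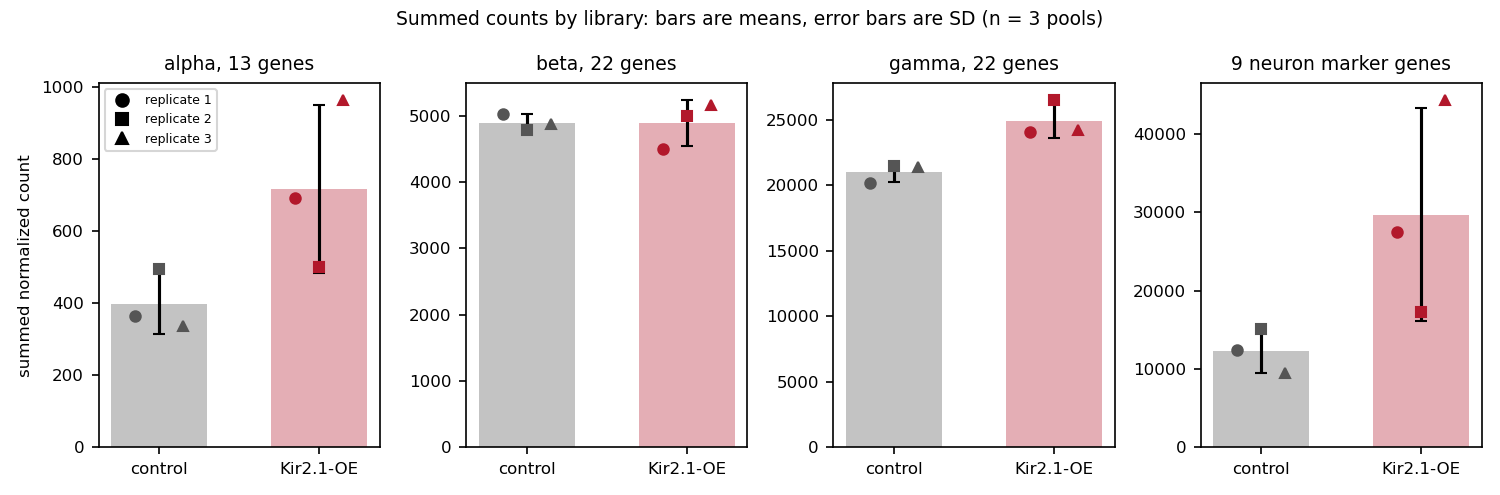
Summed normalized counts of the alpha, beta and gamma members and of the 9 spiral ganglion neuron markers in each library (symbols by replicate number), with group means as bars and SD as error bars, n = 3 pools. With the TMM scaling drawn here the alpha sums follow the neuron markers in order of libraries. With upper quartile scaling or library size alone control replicate 2 is above Kir2.1-OE replicate 2 in the alpha sum. The beta sums overlap between groups, and the gamma sums of the 3 Kir2.1-OE libraries lie above all controls.

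The beta cluster, whose intronless genes encode proteins without the constant cytoplasmic end, did not differ as a sum. It reached 4502, 4998 and 5166 normalized counts in the Kir2.1-OE pools, replicates 1 to 3, and 5030.4, 4789 and 4876 in the control pools. These ranges overlapped, with means of 4888 ± 345 and 4899 ± 122 (SD, n = 3 pools) and a ratio of 0.998. Of the 21 tested beta genes 13 had log2 fold changes above 0 and 8 below, from -0.43 to 0.77.

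Pcdhb2 was the called beta gene. It had 51.3, 49.0 and 56.1 normalized counts in the Kir2.1-OE libraries and 33.1, 34.5 and 23.4 in the controls. The groups did not overlap, and the log2 fold change was 0.77 (SE 0.262, adjusted p = 0.0329, edgeR quasi-likelihood test, Benjamini-Hochberg adjusted) and 0.85 with the offsets, where it was also called. The gene is among the lowest of the cluster, at 10.8 ± 2.15 normalized counts per kb in controls (SD, n = 3 pools). Its call was lost without any 1 of the libraries other than control replicate 2, at log2 fold changes of 0.62 to 0.84 and adjusted p of 0.0563 to 0.104, and it was lost under DESeq2's Wald test (adjusted p = 0.063).

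Pcdhb21 had 89.3, 95.9 and 99.4 against 75.2, 70.0 and 64.1, again without overlap, at a log2 fold change of 0.44 (SE 0.19) and an adjusted p of 0.0776 (edgeR quasi-likelihood test, Benjamini-Hochberg adjusted). Pcdhb3 had 101, 82.9 and 117 against 70.2, 99.0 and 74.3, with overlap through control replicate 2. Neither was called.

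At the other end, Pcdhb11 had 156, 189.9 and 268 normalized counts against 288, 273 and 263, and only Kir2.1-OE replicate 3 reached the control range. Its log2 fold change was -0.43 (SE 0.191, adjusted p = 0.0893, edgeR quasi-likelihood test, Benjamini-Hochberg adjusted), and without Kir2.1-OE replicate 3 it was called lower at -0.68. Pcdhb12, with 173, 199.9 and 226 against 229, 258 and 234, was the 1 member whose Kir2.1-OE libraries all lay below the controls, at -0.27 (SE 0.146). Pcdhb14 had 426, 521 and 509.9 against 565, 443 and 553, where the groups overlapped. Pcdhb22 had a log2 fold change of 0.02 (SE 0.122) that became -0.37 with the offsets, at an adjusted p of 0.0368 (edgeR quasi-likelihood test, Benjamini-Hochberg adjusted).

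The most abundant beta gene per kb was Pcdhb17, with 849, 1004 and 885 normalized counts in Kir2.1-OE libraries and 1019, 900.4 and 905 in controls. The groups overlapped for Pcdhb17, at a log2 fold change of -0.04 (SE 0.0942). In controls it reached 202 ± 14.5 normalized counts per kb, above Pcdhb9 at 105 ± 11.4 (SD, n = 3 pools), and the libraries of neither reached those of the next gene, Pcdhb20, at 88.1 ± 6.07. Pcdhb9 had 299.7, 283 and 339 normalized counts against 357, 317 and 288, and Pcdhb20 had 254, 353 and 382 against 289, 322 and 329.8. Both overlapped between groups. From Pcdhb20 down to Pcdhb11, neighbours in the order of levels had overlapping control ranges. Pcdhb1 was at most at 5.02 normalized counts in any library and was not tested.

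The gamma cluster held most of the members' reads, 79.9% ± 0.839 in controls and 81.6% ± 1.60 in Kir2.1-OE libraries (SD, n = 3 pools), and differed by a small amount. Its sum was 24108, 26499 and 24244 normalized counts in the Kir2.1-OE pools, replicates 1 to 3, and 20177, 21490.0 and 21439 in the control pools. All Kir2.1-OE libraries were above all controls, at a ratio of 1.19, and this held under each of the 4 scalings. Left-out libraries moved the log2 difference of 0.25 between 0.20 and 0.27. The beta share was below the control range in all 3 Kir2.1-OE libraries, at 16.0% ± 0.884 against 18.6% ± 0.936, and the alpha share was 2.36% ± 0.804 against 1.51% ± 0.305.

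None of the 22 gamma genes was called by edgeR, DESeq2 or limma-voom, though 13 were higher at an unadjusted p under 0.05, and 8 had an adjusted p under 0.05 with a fold of 1.5 or less: Pcdhga1, Pcdhga2, Pcdhga8, Pcdhga10, Pcdhga11, Pcdhga12, Pcdhgb4 and Pcdhgb6. These are 36.4% of the cluster beside 27.3% of genes, and 4 genes of the cluster had such a p without Kir2.1-OE replicate 2 or without control replicate 3. By type, the 8 were 6 of 12 A genes and 2 of 7 B genes. The groups did not overlap for 15 of the 22, which is 68.2% beside the 31.7% of genes. Along the cluster 21 of 22 log2 fold changes were above 0, and the highest was 0.54. Under the offsets 15 of the 22 were below 0, none of the 8 kept its adjusted p under 0.05, and the 1 gamma gene that passed it was Pcdhgb5, lower at -0.39 (adjusted p = 0.0224, edgeR quasi-likelihood test, Benjamini-Hochberg adjusted).

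Pcdhgb4 had the highest gamma fold change. It had 426, 507 and 391 normalized counts in the Kir2.1-OE pools, replicates 1 to 3, and 273, 297 and 340.0 in the control pools. The groups did not overlap, and the log2 fold change was 0.54 (SE 0.137, adjusted p = 0.00916, edgeR quasi-likelihood test, Benjamini-Hochberg adjusted). Its fold exceeded 1.5 without Kir2.1-OE replicate 3 (0.61) or control replicate 3 (0.63), and with the offsets it was 0.19. Pcdhga10 had 741, 1001 and 803 against 498, 624 and 679, with no overlap and a log2 fold change of 0.50 (SE 0.144, adjusted p = 0.0168, edgeR quasi-likelihood test, Benjamini-Hochberg adjusted). Without control replicate 3 Pcdhga10 was called, at 0.60.

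Pcdhgb6, the second gamma gene by level, had 1910.2, 1961 and 2119 normalized counts against 1476, 1620.1 and 1679.5, again without overlap. Its log2 fold change was 0.33 (SE 0.0776, adjusted p = 0.00672, edgeR quasi-likelihood test, Benjamini-Hochberg adjusted) and -0.05 with the offsets. Pcdhga7 had 1400.0, 1406 and 1299 against 1191, 1243 and 1156, no overlap either, at 0.19 (SE 0.0732). At the low end, Pcdhgb5 had 393, 456 and 404 against 406, 449.8 and 418, and Pcdhga6 had 515, 599 and 545 against 531, 558 and 536. Both overlapped, at log2 fold changes of -0.02 (SE 0.107) and 0.03 (SE 0.0952).

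The C-type genes at the end of the cluster covered its whole range of levels. Pcdhgc3, an isoform also known for a role in Wnt signalling, was the most abundant member and made up 49.7% ± 1.75 of the gamma sum in controls and 48.4% ± 1.65 in Kir2.1-OE libraries (SD, n = 3 pools). It had 11814, 13161 and 11281 normalized counts in the Kir2.1-OE pools, replicates 1 to 3, and 9835, 10462 and 11092 in the control pools. The groups did not overlap, and the log2 fold change was 0.21 (SE 0.0835, adjusted p = 0.0624, edgeR quasi-likelihood test, Benjamini-Hochberg adjusted) and -0.22 with the offsets. Without Pcdhgc3 the gamma sum had a ratio of 1.22.

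Pcdhgc4, the isoform needed for the survival of cortical interneurons, had 216, 151 and 177 against 146, 137 and 99.8. No control library reached a Kir2.1-OE library, at a log2 fold change of 0.50 (SE 0.204, adjusted p = 0.0652, edgeR quasi-likelihood test, Benjamini-Hochberg adjusted) and 0.04 with the offsets. Pcdhgc5, the member with the lowest level of the cluster, had 14.4, 33.0 and 19.0 against 28.1, 11.8 and 20.4 with full overlap. Per kb of transcript the control levels were 2232 ± 134 for Pcdhgc3, 25.4 ± 4.92 for Pcdhgc4 and 3.48 ± 1.41 for Pcdhgc5 (SD, n = 3 pools).

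**Figure D4:**
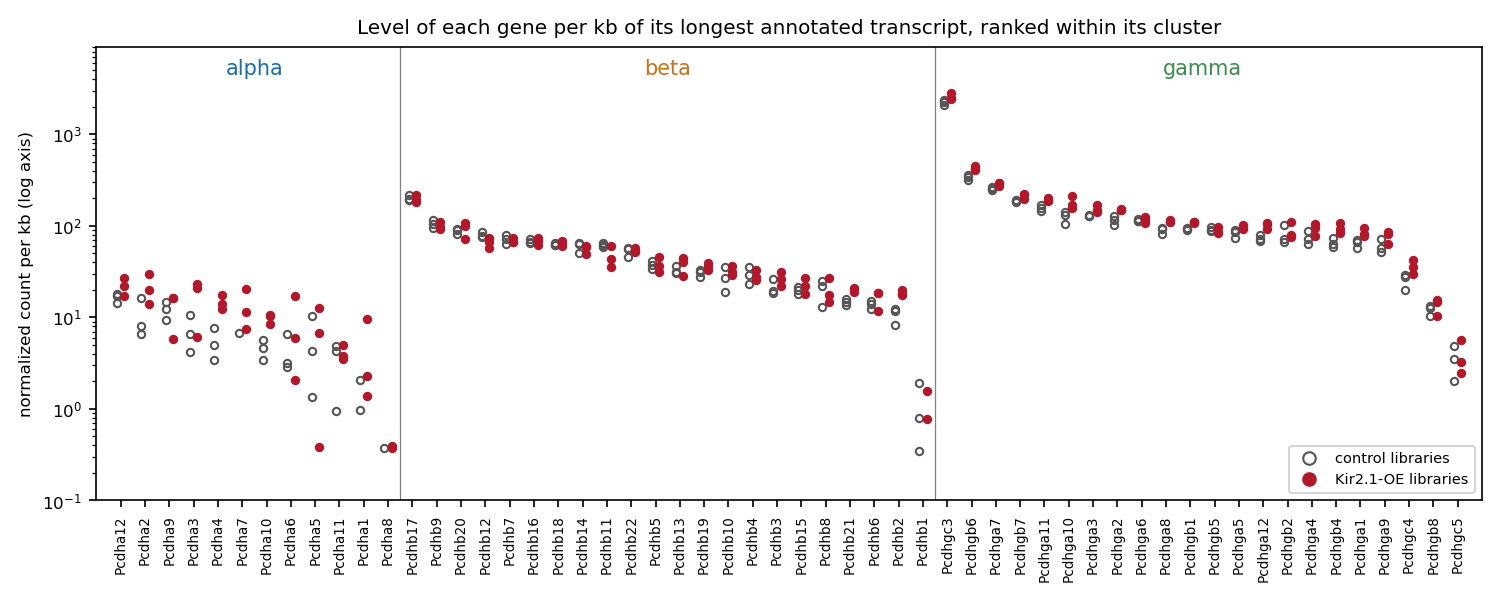
Normalized count per kb of the longest annotated transcript (log axis) for the 56 members with a length, ranked by their mean within each cluster, with control libraries as open grey circles and Kir2.1-OE libraries as filled red circles. Values of 0 cannot be drawn on this axis. Pcdhgc3 stands near 2232 in control libraries, the next gamma gene near 340, the top beta gene near 202 and the top alpha member near 16.6. Pcdhac1 and Pcdhac2 are not members and are not drawn.

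Among the members, the gamma cluster held the genes with the highest levels and the alpha cluster those with the lowest. Per kb, the highest control levels of members were 2232 in gamma (Pcdhgc3), 202 in beta (Pcdhb17) and 16.6 ± 1.86 in alpha (Pcdha12). The gamma members include C-type genes and the alpha members do not. Pcdhac2, an alpha C-type gene outside the rule, had 66.7 ± 5.96 in controls (SD, n = 3 pools), above every alpha member. Within gamma, Pcdhgc3, Pcdhgb6 (340 ± 22.4), Pcdhga7 (253 ± 9.23), Pcdhgb7 (187 ± 4.97) and Pcdhga11 (156 ± 10.4) each lay above the next gene in every control library. Among the alpha genes neighbours in the order overlapped throughout, so these data give no order of their levels from gene to gene.

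Alpha transcripts measured 5206 to 5367 nt, gamma transcripts 4615 to 5777 nt, and beta transcripts 2588 to 8695 nt. With the offsets, which remove each library's trend of counts along transcript length and GC content, 985 genes were called higher, 6.44% of those tested, and of the members Pcdha4 and Pcdhb2. At any fold, 2 members were then higher (14.4% of genes) and 2 lower (19.9% of genes), Pcdhb22 and Pcdhgb5. All 11 tested alpha genes and all 22 gamma genes had a lower log2 fold change with the offsets than without.

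**Figure D5:**
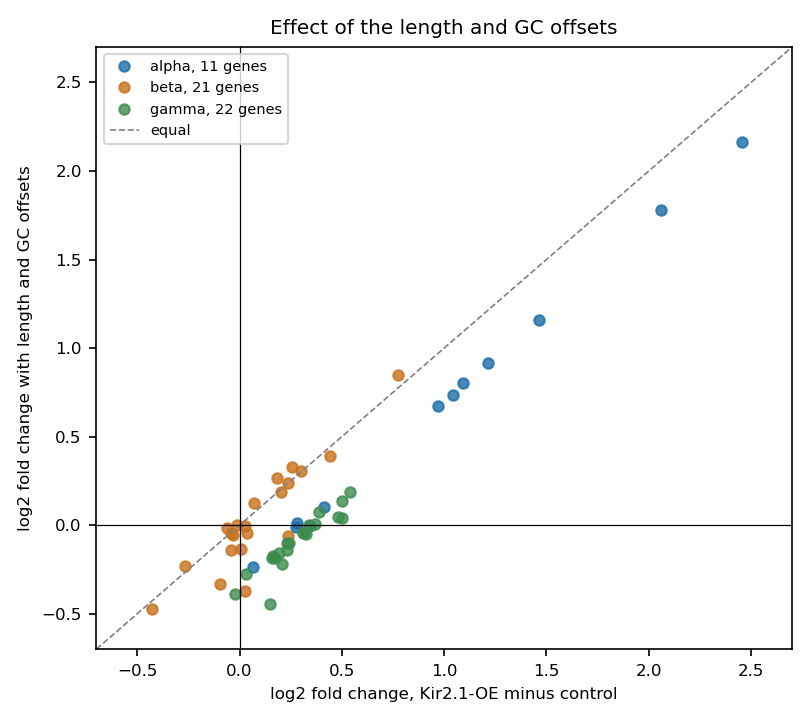
Log2 fold change with length and GC offsets (vertical) against that without (horizontal) for the 54 tested members, coloured by cluster, with equality as a dashed line. The gamma genes drop from a median of 0.27 to -0.08 and the alpha genes from 1.04 to 0.73, while the beta genes stay around 0.

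The genes that act on these clusters were read from lists. Of 13 genes of promoter choice and looping, the CTCF and cohesin machinery that brings a chosen promoter to its enhancer, 7 were called higher and 0 lower, beside the 15.5% of genes called higher, with a median log2 fold change of 0.59. Without Kir2.1-OE replicate 1 the 7 were 3, since Smc3, Wapal, Pds5a and Wiz, all near the fold threshold, were not called. They were Nipbl, the loader of cohesin (1.48, SE 0.169), Rest, a repressor of neuronal genes (1.36, SE 0.111), the cohesin subunits Smc1a (0.93, SE 0.153) and Smc3 (0.66, SE 0.14), the cohesin release factors Wapal (0.62, SE 0.108) and Pds5a (0.60, SE 0.0788), and Wiz (0.59, SE 0.0868), a partner of CTCF at these promoters. For 12 of the 13 listed genes, all 7 called ones among them, every Kir2.1-OE library was above every control library (92.3%, beside 31.7% of genes). Ctcf itself had a log2 fold change of 0.29 (SE 0.0692). With the offsets 4 of the 13 were called higher, Nipbl, Rest, Smc1a and Smc3, beside 6.44% of genes.

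Of 7 genes of methylation and silencing, Dnmt1 (0.94, SE 0.0901) and Dnmt3a (1.06, SE 0.0982) were called higher, 28.6% beside 15.5% of genes, and neither was with the offsets (6.44% of genes). Smchd1, a silencer of these clusters, had a log2 fold change of 0.55 (SE 0.0847), and Dnmt3b, which methylates their promoters in the embryo, 0.15 (SE 0.194). Of 15 partners inside the cell, 4 were called higher (26.7%, beside 15.5% of genes): Cyfip2 of the WAVE complex (0.91, SE 0.0761), the kinases Prkca (0.88, SE 0.115) and Ptk2b (0.69, SE 0.137), and the receptor Ret (1.07, SE 0.151). Pdcd10, which binds the shared end of gamma proteins, was called lower (-0.61, SE 0.101, 6.67% of the list beside 5.08% of genes), though not without Kir2.1-OE replicate 1 or control replicate 1, and with the offsets only Ret of these 5 was called. The 6 cleavage genes are Adam10 and the subunits of gamma-secretase, which cut the proteins at the membrane. Of these 0 were called in either direction by the 3 tools, beside 15.5% of genes higher and 5.08% lower by edgeR. Aph1a (-0.41) and Psenen (-0.45) were lower at an unadjusted and an adjusted p under 0.05 in the edgeR quasi-likelihood test. These 2 are 33.3% of the list, beside 23.5% of genes, and the median of the list was -0.07.

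Protocadherins outside the clusters had 3 of 13 tested genes called higher, Pcdh1 (0.69, SE 0.105), Pcdh7 (0.74, SE 0.0767) and Pcdh15 of the tip link of the hair bundle (1.11, SE 0.145), which is 23.1% beside the 15.5% of genes. None was called lower by the 3 tools or had an unadjusted p under 0.05 in that direction (0 genes, beside the 5.08% called lower). Their median was 0.30, and -0.05 with the offsets, where Pcdh15 was called. Of the genes that flank or lie between the clusters on the chromosome 13 were tested, 9 with log2 fold changes below 0 and 4 above, at a median of -0.22. Among them 7 had all Kir2.1-OE libraries below all controls (53.8%, beside 29.9% of genes) and 3 had them above, Ik, Diap1 and Arap3 (23.1%, beside 31.7%). Ndufa2, a subunit of respiratory complex I, was called lower (-0.74, SE 0.0927) and not so with the offsets. It was the only one called, 7.69% of the 13 tested beside 5.08% of genes. Taf7 and Slc25a2 lie between the beta and gamma genes. Taf7 had a log2 fold change of -0.22 (SE 0.0871), and Slc25a2 did not pass the filter.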

How the data were processed

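Cochlear RNA was sequenced in 3 Kir2.1-OE and 3 control pools. The authors mapped paired-end reads to mm10 with the nf-core RNA pipeline at standard parameters and deposited Salmon's expected counts per gene, which need not be whole and are not divided by length or depth. Tool versions, annotation, strand setting and duplicate removal are not given in the sources used here. Samples were grouped by the genotype in the labels. Expected counts were rounded, filtered by filterByExpr to 15303 genes, scaled by TMM (factors 0.984 to 1.01) and fitted with the quasi-likelihood model of edgeR 4.0.16 (R 4.3.3), and p-values were adjusted by Benjamini-Hochberg over all 15303. A gene was called at an adjusted p under 0.05 with a fold change above 1.5. Cluster sums are given without a test, since the members were chosen with earlier results known. Only the sums of Pcdha4, Pcdha6 and Pcdha7 with their partner genes were fitted, as an alternative added after the values were seen. Libraries of a group differed by a chi-square of 15.7 to 31.1 per degree of freedom, so none was counted as a duplicate. Each pool is a separate sample in the labels, so p-values measure the spread between pools.

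Length, GC content and shared exons came from the longest GENCODE vM21 transcript of each gene. Of 24411 symbols, 23376 matched by symbol, 103 by RefSeq accession and 677 by an older symbol, and 255 did not match. The offsets are a loess trend (span 0.4) of each library on log2 length and GC content. Named members are, in each cluster, the 3 highest by count per kb, the 3 highest and 3 lowest by log2 fold change, the C-type genes and every called member. The members, gene lists and rules were chosen with earlier results of these data known. The alternatives were other scalings, filters and tests (DESeq2 1.42.0, limma-voom 3.58.1, glmTreat), unrounded counts, a replicate block, the offsets, and each library left out. The model was checked on simulated counts first. Sequences of the members are not reported here.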

Additional observations from a re-analysis of the deposited data

How the results depend on the processing

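The 29 members and neighbours named by the rule gave 576 values under up to 20 alternatives, of which 496 kept direction and call, 34 lost the call, 11 gained it and 35 turned sign, and Kcnj2 was called under all 20. The 4 members called higher became 2 with upper quartile scaling, 2 with the length and GC offsets, 6 with no filter beyond a total count above 0 (with Pcdha3 and Pcdha7), 12 with no fold threshold and 0 under glmTreat, and between 2 and 5 with 1 library left out. Called lower were 0 to 2 with 1 library left out, Pcdhb11 and Pcdha7-g without Kir2.1-OE replicate 3 and Pcdha7-g without control replicate 2. At any fold the 12 higher members became 7 with upper quartile scaling and 2 with the offsets, and 6 to 15 with 1 library left out, and the 0 lower members became 1 and 2, and 0 to 2. All genes called higher and lower numbered 985 and 515 with the offsets, 4184 and 3590.0 with no fold threshold and 832 and 57 under glmTreat, and 1897 and 1378 with upper quartile scaling, against 2365 and 778; that scaling moved the median of all genes by -0.09, the beta sum to -0.093 and the gamma sum to 0.16 on the log2 scale.

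The file header of control replicate 1 carries another number than its label, so its number may be that of another pool. By the labels, the deviations of same-numbered libraries had correlations of -0.106, -0.232 and -0.213, and those of differently numbered libraries 0.0061 to 0.20. With that number in doubt, these values cannot show whether the pools were paired. With the replicate block 2 members were called higher (Pcdha4 and Pcdha10), and with the block and the offsets 1 was (Pcdha4), also 1 at any fold, beside 791 genes higher and 439 lower. Under the block Pcdha9 was at -0.024.

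Values that turned sign were all of uncalled genes. With upper quartile scaling these were Pcdha9 (-0.026), Pcdhb20 (-0.017) and Pcdhga6 (-0.060), and with limma-voom Pcdha9 (-0.065) and Pcdha5 (-0.28). With the offsets, and with the block and the offsets, they were Pcdha9 (-0.24, -0.32), Pcdhgc3 (-0.22, -0.22), Pcdhgb6 (-0.052, -0.053), Pcdhga7 (-0.16, -0.16), Pcdhga6 (-0.28, -0.28) and Pcdhgc5 (-0.44, -0.45), besides Pcdha11 (-0.012) with the offsets and Pcdha5 (-0.000126) with both. With 1 library left out the ranges were -0.17 to 0.39 for Pcdha9, -0.15 to 0.65 for Pcdha11, -0.64 to 1.22 for Pcdha5, -0.14 to 0.015 for Pcdhb17, -0.15 to 0.019 for Pcdhb9, -0.060 to 0.22 for Pcdhb20, -0.12 to 0.019 for Pcdhgb5, -0.057 to 0.066 for Pcdhga6 and -0.28 to 0.47 for Pcdhgc5. The cause was not tested. Alpha members had at most 159 normalized counts in any library.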

Other observations

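The other marker lists bear on the tissue in each pool. Of 6 shared hair cell markers 1 was called higher, of 4 outer hair cell markers 2, of 4 inner hair cell markers 2, of 7 glial markers 3 and of 6 fibroblast markers 1, beside the 15.5% of genes called higher. Without Kir2.1-OE replicate 1 no outer hair cell marker was called by edgeR (0 of 4, and 2 at an unadjusted p under 0.05 with all libraries), and without Kir2.1-OE replicate 3 the glial count was 1. The fibroblast call, Col1a1, was lost without Kir2.1-OE replicate 1, Kir2.1-OE replicate 3 or control replicate 1. Of that list 4 had all Kir2.1-OE libraries above all controls (66.7%, beside 31.7% of genes). Dcn (-0.41) and Lum (-0.49) had them all below (33.3%, beside 29.9%). The 7 supporting cell markers had 1 called higher and 1 lower (14.3% each, beside 15.5% and 5.08% of genes) and a median log2 fold change of 0.04. The lower one, Hes5, was not called without replicate 1 or 2 of either group. No macrophage marker was called by edgeR, DESeq2 or limma-voom, and 3 of 4 had an adjusted and an unadjusted p under 0.05 in the edgeR quasi-likelihood test at a smaller fold. These went both ways, with Cx3cr1 (0.24) and Csf1r (0.47) higher and C1qa (-0.21) lower. Hemoglobin genes, the 4 erythrocyte markers, had 2 called lower, Hba-a1 and Hbb-bt, beside 5.08% of genes. The summed count of the 4 was 10575 to 13387 in the Kir2.1-OE pools against 17389 to 43530.0 in the controls. In that sum control replicate 1 was the highest, and without this library the call of Hba-a1 was lost (-0.56).

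The order of the libraries by summed gamma count was not that of the neuron markers. Kir2.1-OE replicate 2 was the highest gamma library at 26499 normalized counts and the lowest Kir2.1-OE library by neuron markers at 17338. The sum of the alpha members with Gm37013 and Gm38666, the genes that RefSeq lists from the first exons of Pcdha4 and Pcdha6 to the end of the gamma cluster, had a ratio of 1.81 between groups. Gm37013 was at 55.0 normalized counts in Kir2.1-OE replicate 3, at 9.09 in control replicate 2 and at 0 in the other libraries.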
